A study of Mus musculus with 8 samples.

Results

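The ATF4 and CHOP stress axis was followed through 10 genes chosen by name, Atf4, Atf5, Ddit3, Ddit4, Trib3, Chac1, Asns, Cebpb, Cebpg and Ppp1r15a, of 29079 genes in the count table. All 10 were found in the table and passed the filter on low counts. The cells were MC38, a mouse tumour line of the colon that the labels call epithelial, grown as 2 lines. The control line carried a CRISPR control and is labelled WT, and the other, labelled Piezo2_KO (KO below), was edited with Piezo2-gRNA1, so that 1 guide RNA stands behind it. Each line was measured without irradiation and 60 hours after a single X-ray dose of 30 Gy, with 2 mRNA sequencing libraries in each of the 4 groups and 8 in all. The labels do not say whether the libraries of a group came from separate cultures, so p-values here reflect the variation among libraries alone, and that variation may be technical. The labels also do not say whether the KO line was grown from 1 clone.

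ATF4 is a bZIP transcription factor at the centre of the integrated stress response. Stress kinases phosphorylate the translation factor eIF2alpha, general protein synthesis slows, and Atf4 mRNA, whose upstream reading frames normally hold translation back, is then translated. ATF4 turns on genes for amino acid synthesis and import, and with CHOP, the product of Ddit3, it turns on Trib3, Chac1 and Ppp1r15a, the last of which encodes GADD34 and leads phosphatase to eIF2alpha to end the response. Because much of the control of ATF4 and ATF5 is at translation, mRNA counts of these factors do not measure their protein.

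ATF4 binds DNA with C/EBP partners at composite elements, and the letters of such elements were searched for in RefSeq windows of assembly GRCm38.p6 that run from 250 bases before to 50 bases after each gene's start. All 10 genes matched, with 11 windows because Atf5 has 2. Stretches of the 4 genes whose windows held one of the letter strings are shown. They are written 5′ to 3′ on the gene's strand, with the matching letters in capitals, and end before the RefSeq transcript except for a short Trib3 stretch. Bases are counted from the start, negative before it.
Asns: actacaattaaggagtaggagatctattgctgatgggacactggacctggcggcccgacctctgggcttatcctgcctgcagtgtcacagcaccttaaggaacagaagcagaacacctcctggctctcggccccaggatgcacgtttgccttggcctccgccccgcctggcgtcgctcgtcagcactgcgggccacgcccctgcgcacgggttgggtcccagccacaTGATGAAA
Chac1: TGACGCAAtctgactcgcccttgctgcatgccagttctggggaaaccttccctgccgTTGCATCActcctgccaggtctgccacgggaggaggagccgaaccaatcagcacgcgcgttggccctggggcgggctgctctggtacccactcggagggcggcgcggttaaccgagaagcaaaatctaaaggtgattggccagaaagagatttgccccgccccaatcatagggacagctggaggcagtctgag
Ppp1r15a: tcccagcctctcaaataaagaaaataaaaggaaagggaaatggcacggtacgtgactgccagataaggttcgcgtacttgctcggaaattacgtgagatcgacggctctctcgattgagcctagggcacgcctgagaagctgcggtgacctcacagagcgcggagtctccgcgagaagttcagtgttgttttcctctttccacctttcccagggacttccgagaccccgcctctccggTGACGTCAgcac
Trib3: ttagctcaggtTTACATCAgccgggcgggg

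The Asns stretch is chr6:7693225-7693459 on the minus strand, the Chac1 stretch chr2:119350992-119351241 on the plus strand, the Ppp1r15a stretch chr7:45526269-45526518 on the minus strand and the Trib3 stretch chr2:152344028-152344057 on the minus strand. The C/EBP-ATF composite, searched as TGATGNAA on both strands, was in 3 of the 11 windows, against 3.97% of the 32851 windows of all genes. It reads TGATGAAA in Asns from base -23, and lies on the other strand as TTGCATCA in Chac1 from base -193 and as TTACATCA in Trib3 from base 15. The palindromic cyclic AMP response element TGACGTCA was in 1 of 11 windows, in Ppp1r15a from base -12, and in 1.79% of all windows. The hybrid TTGCGTCA was in 1 of 11, in Chac1 from base -250 as TGACGCAA on the other strand, and in 0.49% of all. None of these 3 strings overlapped another in the 4 stretches, and a match describes letters, not a bound site.

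Libraries held 10971004 to 19887180 counts each, and single genes of the axis held between 72 and 8347 reads in a library. Levels are given as counts per M of total counts (CPM), and changes as log2 changes ± SE from edgeR's quasi-likelihood test with Benjamini-Hochberg (BH) adjustment over 14923 tested genes, called at an adjusted p under 0.05. The targeted gene Piezo2 had 0 and 0 reads in WT before irradiation and 3 and 9 after it, and in KO 0 and 1 before and 7 and 12 after it, so its mRNA does not check the knockout. Of 12 epithelial markers 9 were in the table and 4 were tested. The keratins Krt8, Krt18 and Krt19 held no more than 28 reads, which goes against the epithelial label. Cdh1, at 38.1 to 79.3 CPM, goes with it. The collagen genes Col1a2 and Col3a1, listed as fibroblast markers, reached 1425.8 and 1182.8 CPM while Lum held at most 1 read. Among the leukocyte markers, C1qa, Tyrobp and Cd3e held at most 2 reads. Cd68 reached 945 reads, Cd79a 31, Ptprc 20, Lyz2 14 and Csf1r 10, and the rest held at most 6. The summed level of the 12 fibroblast and endothelial markers was 1124.5 to 1240.9 CPM in WT without and 1677.1 to 1861.5 with irradiation, and 1555.3 to 1653.2 in KO without and 2634.7 to 2952.7 with irradiation. That of the 9 epithelial markers was 40.8 to 41.7, 79.3 to 82.4, 49.0 to 51.2 and 83.2 to 83.6 CPM in the same order, and that of the 12 leukocyte markers, nearly all of it Cd68, was 3.86 to 4.2, 38.6 to 40.6, 7.84 to 8.1 and 56.9 to 67.3 CPM. Most of the fibroblast and endothelial sum was Col1a2 and Col3a1, and nearly all of the epithelial sum was Cdh1. The sums were higher after irradiation in both lines, and their part in the results was not tested. In bulk RNA, fewer cells of a kind and less RNA per cell cannot be told apart.

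Per length, Atf4 (chromosome 15, 80255184 to 80257541, plus strand) was the most abundant transcript of the axis in 3 of 4 groups. It stood at 195.6 CPM per kb of exon in non-irradiated WT, above Asns at 97.1 and Atf5 at 65.9, and none of these neighbours overlapped between libraries. Chac1 and Trib3 followed at 23.4 and 21.9, while Cebpg at 16.1 and Ddit3 at 15.4 overlapped, as did Ddit4 at 10.3 and Cebpb at 9.37, and Ppp1r15a was lowest at 6.88 CPM per kb. In irradiated WT the order changed below Atf4. There Ddit3, at 24.6 CPM per kb, stood next to Asns at 32.0, and Trib3 was last at 6.27. In irradiated KO, Atf5 at 106.6 and Atf4 at 96.2 CPM per kb overlapped at the top, and Asns, Ddit3 and Chac1 at 33.5, 31.2 and 30.8 overlapped in turn. The lowest gene in both KO groups was Cebpb, at 6.38 and 8.5 CPM per kb.

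**Figure D1:**
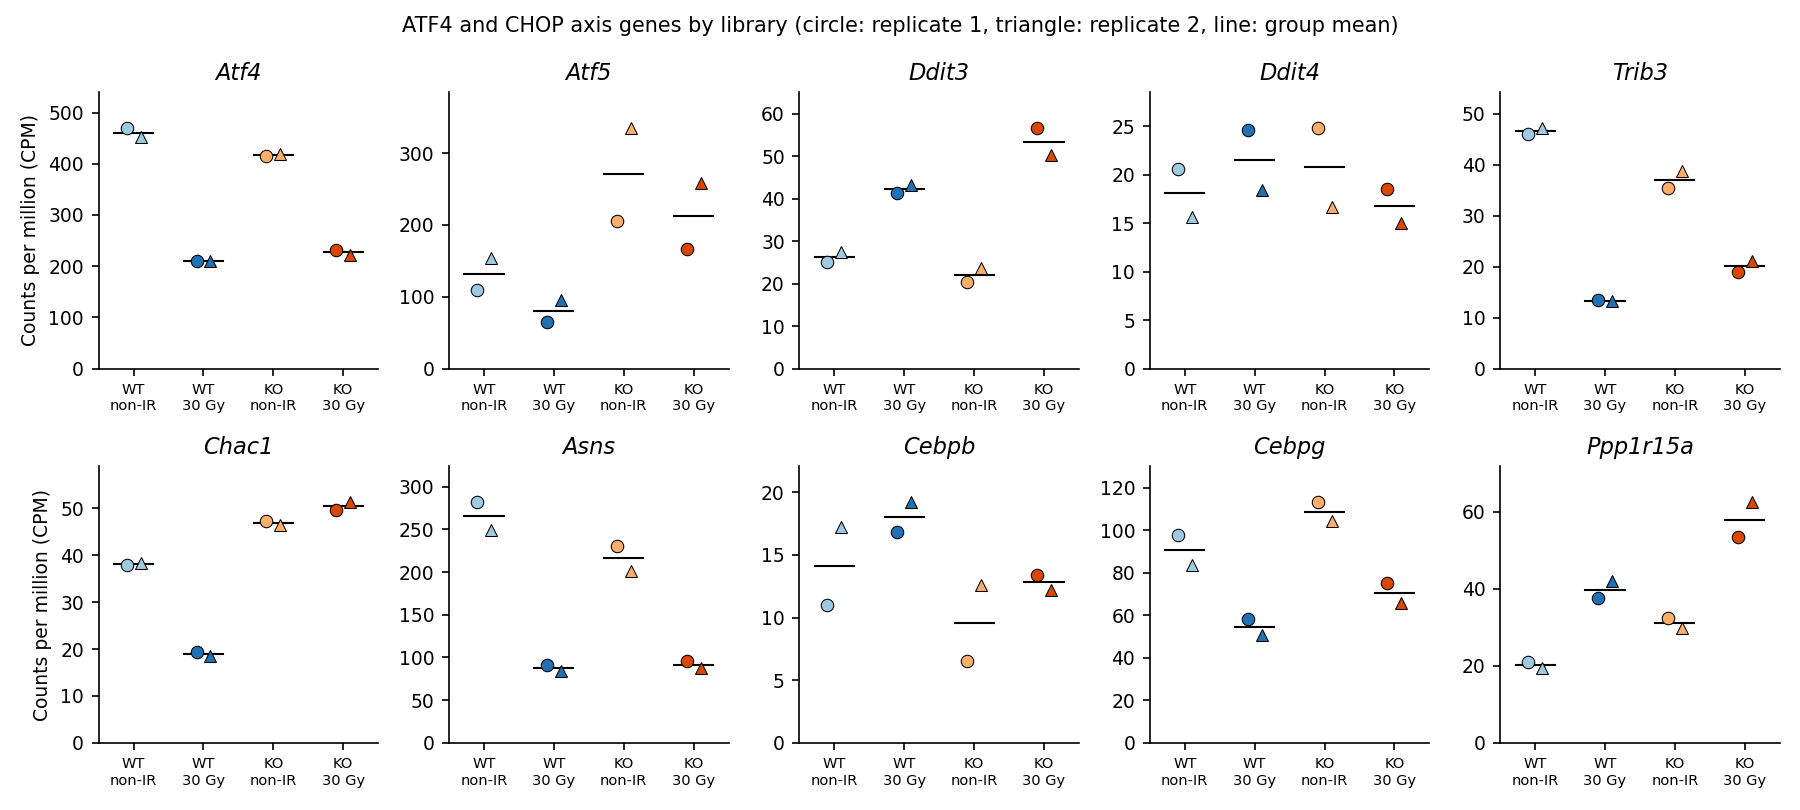
Each panel plots the CPM of 1 gene in the 8 libraries, with circles for replicate 1, triangles for replicate 2 and lines at group means, on axes that start at 0. Atf4, Asns and Trib3 sit lower in both irradiated groups, Ddit3 and Ppp1r15a sit higher, and Chac1 is low in irradiated WT at 18.6 to 19.4 CPM but not in irradiated KO at 49.6 to 51.3.

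At 60 hours after 30 Gy, the control line held less mRNA of Atf4, Asns, Trib3, Chac1 and Cebpg, and more of Ddit3 and Ppp1r15a. Atf4 was 469.8 and 452.3 CPM in the non-irradiated and 210.6 and 211.0 in the irradiated WT libraries. The groups lay far apart, and Atf4 fell by 1.19 ± 0.07 on the log2 scale, a 2.28-fold decrease (edgeR adjusted p = 3.47e-05). Asns (chromosome 6, 7675169 to 7693254, minus strand), which encodes asparagine synthetase, went from 281.8 and 249.3 to 91.2 and 84.2 CPM. It fell by 1.66 ± 0.10, or 3.16-fold (3.85e-05). Trib3 (chromosome 2, 152337422 to 152344032, minus strand), a pseudokinase that feeds back on ATF4 and CHOP, went from 46.0 and 47.2 to 13.4 and 13.3 CPM. Its decrease of 1.86 ± 0.10, or 3.64-fold, was the largest of the 10 genes in any comparison (2.12e-05).

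Chac1 (chromosome 2, 119351229 to 119354381, plus strand), which encodes an enzyme that breaks down glutathione, was 38.0 and 38.4 CPM before and 19.4 and 18.6 after irradiation of WT. It fell by 1.07 ± 0.08, or 2.10-fold (edgeR adjusted p = 7.89e-05). Cebpg (chromosome 7, 35046422 to 35056573, minus strand), a bZIP partner of ATF4, went from 97.7 and 83.5 to 58.1 and 50.9 CPM and fell by 0.79 ± 0.12 (0.00157). For both genes every non-irradiated library lay above every irradiated one.

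Ddit3 (chromosome 10, 127290774 to 127296288, plus strand) moved the other way. It held 25.0 and 27.5 CPM without and 41.2 and 43.2 CPM with irradiation of WT, and rose by 0.63 ± 0.11 on the log2 scale (edgeR adjusted p = 0.00404). Its last 68 exon bases overlap Mars, the methionyl-tRNA synthetase gene on the opposite strand, and the strand setting of the counts is not given. Mars fell by 1.36 ± 0.07 (1.84e-05), opposite to Ddit3. Ppp1r15a (chromosome 7, 45522916 to 45526268, minus strand) was 20.9 and 19.4 CPM without and 37.6 and 41.9 with irradiation, and rose by 0.92 ± 0.11, or 1.89-fold (0.000739). No irradiated library of either gene overlapped a non-irradiated one.

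The other 3 genes did not pass the threshold in WT. Atf5 (chromosome 7, 44812256 to 44816658, minus strand), a relative of ATF4 that responds to mitochondrial stress, was 109.2 and 153.4 CPM before and 65.1 and 94.9 after irradiation. Replicate 2 lay above replicate 1 in each of the 4 groups, and the log2 change of -0.77 ± 0.32 had edgeR adjusted p = 0.0919, or 2.41e-16 with the replicate number as a block. The fit with the block called 9034 of the 14923 tested genes in WT. It takes replicate numbers to pair libraries, which the labels do not state. Ddit4 (chromosome 10, 59949669 to 59951834, minus strand), whose product REDD1 restrains mTORC1, was 20.6 and 15.6 against 24.6 and 18.4 CPM, with overlapping groups and a log2 change of 0.18 ± 0.24 (0.579). Cebpb (chromosome 2, 167688915 to 167690418, plus strand), a bZIP factor that also pairs with ATF4 and CHOP, was 11.0 and 17.2 against 16.8 and 19.2 CPM (0.30 ± 0.31, 0.482). Its counts are uncertain, since 312 of its 1504 exon bases overlap Tmem189 on the opposite strand, which held 24.4 to 46.7 CPM, more than Cebpb in every library.

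In all, 7 of the 10 genes were called in WT after 30 Gy, 2 higher and 5 lower, where 38.9% of all tested genes were called, 20.4% higher and 18.4% lower. The share of the 10 called lower lay above that background and the share called higher near it. The 10 genes and the lists below were chosen with earlier results of these data known. Their shares beside the background are therefore descriptions and not tests. The median log2 change of the 10 was -0.78, beside 0.03 over all tested genes.

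The KO line showed the same directions for 6 of the genes called in WT, while Chac1 was not called. Atf4 was 414.6 and 419.7 CPM in non-irradiated and 232.3 and 221.4 in irradiated KO, and fell by 0.91 on the log2 scale, or 1.88-fold (edgeR adjusted p = 7.26e-05). Asns went from 230.3 and 201.8 to 96.2 and 87.1 CPM and fell by 1.27 (8.75e-05). Trib3 went from 35.4 and 38.7 to 19.0 and 21.2 CPM and fell by 0.92 (0.000322). These 3 genes had non-overlapping groups in KO, as in WT. Cebpg went from 113.2 and 104.4 to 75.3 and 65.8 CPM and fell by 0.66 (0.00336).

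Chac1 was 47.3 and 46.5 CPM without and 49.6 and 51.3 CPM with irradiation of KO. Its log2 change was 0.07 ± 0.08, with a 95% interval of -0.10 to 0.25 and edgeR adjusted p = 0.499, so a decrease of the size seen in WT lies outside the interval. Ddit3 rose from 20.4 and 23.7 to 56.6 and 50.2 CPM, by 1.23 ± 0.11 or 2.35-fold (0.000161), and Ppp1r15a rose from 32.4 and 29.8 to 53.3 and 62.4 CPM, by 0.87 ± 0.11 (0.000813). Mars, the gene overlapping the end of Ddit3, fell by 1.16 ± 0.07 in KO (1.91e-05).

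Atf5 was 205.7 and 334.8 against 166.7 and 258.1 CPM in KO, with overlapping groups and a log2 change of -0.39 ± 0.31 (edgeR adjusted p = 0.365, and 3.84e-09 with the replicate block). Ddit4 was 20.8 ± 5.69 against 16.8 ± 2.48 CPM (SD, 2 libraries each), with a log2 change of -0.33 ± 0.24 (0.31, and 0.0106 with the block). Cebpb was 6.56 and 12.6 against 13.4 and 12.2 CPM (0.35 ± 0.31, 0.421). These 3 genes had overlapping libraries. The fit with the block called 8986 of the 14923 tested genes in KO. In KO 6 of the 10 genes were called, 2 higher and 4 lower, where 39.7% of all tested genes were called, 21.1% higher and 18.6% lower, and the median log2 change was -0.36 beside 0.02 over all genes.

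**Figure D2:**
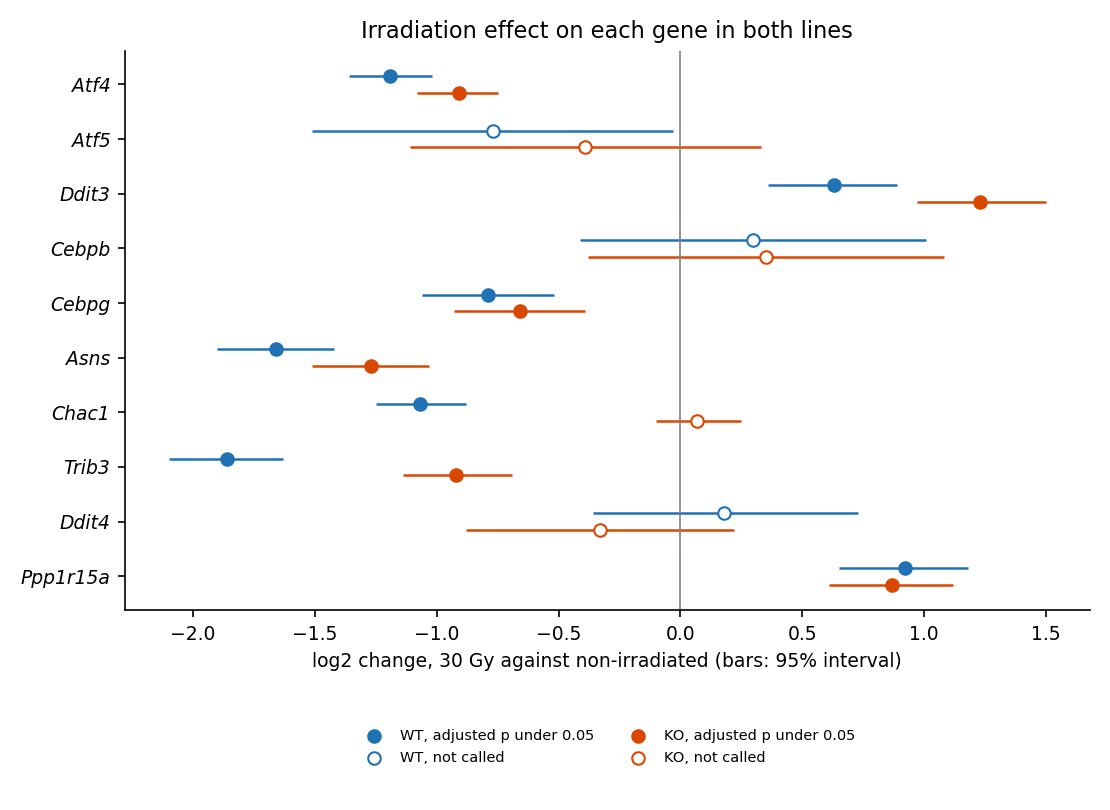
The log2 change after 30 Gy is plotted for each of the 10 genes in WT and in KO, with 95% intervals as bars and called changes marked. Intervals of the 2 lines lie apart for Chac1, at -1.07 in WT and 0.07 in KO, for Trib3, at -1.86 and -0.92, and for Ddit3, at 0.63 and 1.23, while the points of Ppp1r15a nearly coincide at 0.92 and 0.87. Tested directly, the difference between the lines' changes was called for Chac1 and Trib3 but not for Ddit3 (edgeR adjusted p = 0.142).

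The difference between the lines' responses was tested as an interaction, the log2 change of KO after 30 Gy less that of WT. It was called for 2 of the 10 genes, Chac1 and Trib3, both higher, where 1.94% of all tested genes were called, 1.37% higher and 0.57% lower. The Chac1 interaction was 1.14 ± 0.11 on the log2 scale (95% interval 0.88 to 1.40, edgeR adjusted p = 0.00252), and it was called under each of 13 alternative fits. The Trib3 interaction was 0.95 ± 0.14 (0.63 to 1.27, adjusted p = 0.0153). Its size was 0.87 to 1.03 when a library was left out, and the call was lost without any of the 4 WT libraries, non-irradiated KO replicate 1 or irradiated KO replicate 2, with adjusted p = 0.069 to 0.0801.

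For Ddit3 the interaction was 0.61 ± 0.16, with edgeR adjusted p = 0.142, and 0.000668 with the replicate block. For Atf4 it was 0.27 ± 0.10 (0.312, block 0.000729), for Asns 0.39 ± 0.14 (0.32, block 2.05e-05), for Atf5 0.38 ± 0.44 (0.841, block 4.35e-05) and for Ddit4 -0.52 ± 0.33 (0.628, block 0.0158). With the block, 7 of the 10 genes were called, beside 16.7% of all tested genes. Ppp1r15a had an interaction of -0.05 ± 0.16 with a 95% interval of -0.42 to 0.32, and Cebpg of 0.14 ± 0.16 with an interval of -0.24 to 0.51. For these 2 genes and for Cebpb no fit called a difference.

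Set against Atf4 reads of the same library, the genes parted into separate patterns. For each 100 Atf4 reads WT held 5.31 and 6.09 Ddit3 reads without and 19.5 and 20.5 with irradiation, and KO held 4.92 and 5.64 without and 24.4 and 22.7 with it. Ppp1r15a likewise went from 4.46 and 4.3 to 17.8 and 19.9 in WT, and from 7.8 and 7.09 to 22.9 and 28.2 in KO. The ratios of both genes were thus higher in every irradiated library of either line, with Atf4 itself lower there.

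Chac1 differed little against Atf4 in WT, at 8.09 and 8.5 reads per 100 Atf4 reads without and 9.21 and 8.81 with irradiation. In KO it was 11.4 and 11.1 without and 21.4 and 23.2 with irradiation. Trib3 was 9.78 and 10.4, 6.34 and 6.3, 8.53 and 9.21, and 8.19 and 9.56 in the 4 groups in the same order, so that it was lowest in irradiated WT and its KO groups overlapped. Asns was lower per Atf4 read after irradiation of both lines, at 60.0 and 55.1 against 43.3 and 39.9 in WT and at 55.6 and 48.1 against 41.4 and 39.4 in KO. These ratios hold no information beyond the counts above and were not tested.

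**Figure D3:**
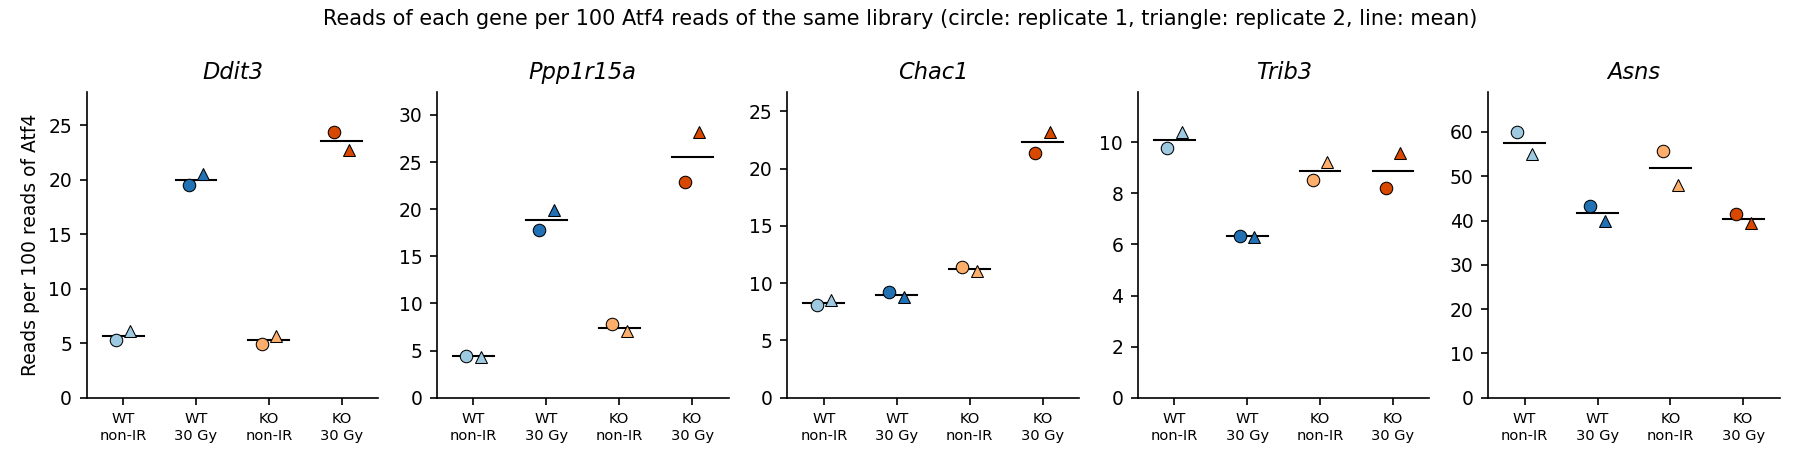
Reads of 5 genes per 100 Atf4 reads of the same library are plotted by group, with circles for replicate 1, triangles for replicate 2 and lines at means, on axes that start at 0. Ddit3 and Ppp1r15a are higher in all irradiated libraries, and Chac1 is highest in the irradiated KO libraries, at 21.4 and 23.2.

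Without irradiation 3 of the 10 genes differed between the lines by the test. They were Ppp1r15a, higher in KO by 0.61 ± 0.12 on the log2 scale (edgeR adjusted p = 0.0099), Chac1, higher by 0.28 ± 0.08 (0.0376), and Trib3, lower by 0.34 ± 0.09 (0.0407). These are 2 higher and 1 lower, where 19.9% of all tested genes were called, 10.4% higher and 9.49% lower, with a median of 0.01 beside -0.01 over all genes. The Chac1 and Trib3 calls were lost with DESeq2 (0.156 and 0.124), without the count filter (0.135 and 0.0856) and in all 8 fits that left out a library. Ppp1r15a lost its call without non-irradiated WT replicate 2 (0.0668) or non-irradiated KO replicate 1 (0.057).

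The remaining differences without irradiation did not pass. Atf5 differed by 1.04 ± 0.31 (edgeR adjusted p = 0.0548, and 9.14e-21 with the replicate block), with both KO libraries above both WT libraries. Leaving out 1 library moved it to between 0.63, without non-irradiated KO replicate 2, and 1.36, without replicate 1 of that group (0.263 and 0.0438). It also passed without irradiated KO replicate 2 (0.0463) and without the count filter (4.71e-21). Atf4 differed by -0.16 ± 0.07 (0.169), Asns by -0.31 ± 0.10 (0.0686), Ddit3 by -0.25 ± 0.12 (0.169), Cebpb by -0.54 ± 0.31 (0.281) and Cebpg by 0.25 ± 0.11 (0.169). With the block these had adjusted p = 0.00193, 9.7e-08, 0.0432, 0.00709 and 8.88e-05. Ddit4 was called in neither fit. In all, 9 of 10 genes were called with the block, which called 44.9% of all tested genes.

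After irradiation 5 of the 10 genes were higher in KO than in WT and 0 lower, where 24.6% of all tested genes were called, 13.3% higher and 11.4% lower. Chac1 differed most clearly, by 1.42 ± 0.08 on the log2 scale or 2.68-fold (edgeR adjusted p = 2.78e-05), and Trib3 by 0.61 ± 0.10 or 1.52-fold (0.00437). Both calls held in all 13 alternative fits. Atf5 was higher by 1.42 ± 0.32 (0.0156), a call lost without irradiated WT replicate 1 (0.0903) or irradiated KO replicate 2 (0.0771). Ppp1r15a was higher by 0.55 ± 0.11 (0.00949), lost without the same libraries (0.0614 and 0.0576), and Cebpg by 0.39 ± 0.12 (0.0468), lost with DESeq2 size factors and without any irradiated library or either non-irradiated KO library (0.0517 to 0.264). With 0 genes lower in this fit, the fit with the block called 2 of them lower, Ddit4 and Cebpb, and 9 in either direction, beside 50.4% of all tested genes.

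Atf4 and Asns themselves lay close in the irradiated lines. Atf4 differed by 0.12 ± 0.07 (95% interval -0.05 to 0.28, edgeR adjusted p = 0.272, block 0.0201) and Asns by 0.08 ± 0.10 (-0.16 to 0.32, 0.643). Ddit3 differed by 0.35 ± 0.11 (0.0524, block 0.000405), Ddit4 by -0.35 ± 0.24 (0.339, block 0.00772) and Cebpb by -0.48 ± 0.31 (0.301, block 0.00531). The median over the 10 genes was 0.37, beside -0.01 over all tested genes.

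Of the genes higher in KO, 3 share a chromosome. Atf5, Cebpg and Ppp1r15a lie on chromosome 7, whose 1148 tested genes had a median KO difference of 0.37 without and 0.38 after irradiation. Less this median, Atf5 stood at 0.67 without and 1.04 after irradiation, Ppp1r15a at 0.23 and 0.18, and Cebpg at -0.12 and 0.01. Medians of tested genes within 5 Mb of each gene were 0.36 to 0.42 and 0.36 to 0.37. Chac1 and Trib3 lie on chromosome 2, whose median was -0.09 in both comparisons, so that after irradiation they stood at 1.51 and 0.70 above it. For the irradiation effects the chromosome 7 median was 0.00 in WT and 0.01 in KO. Atf5 also overlaps Nup62, a nuclear pore gene on the opposite strand, by 82 exon bases, and Nup62 differed between lines by 0.02 ± 0.09 without and -0.03 ± 0.09 after irradiation.

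**Figure D4:**
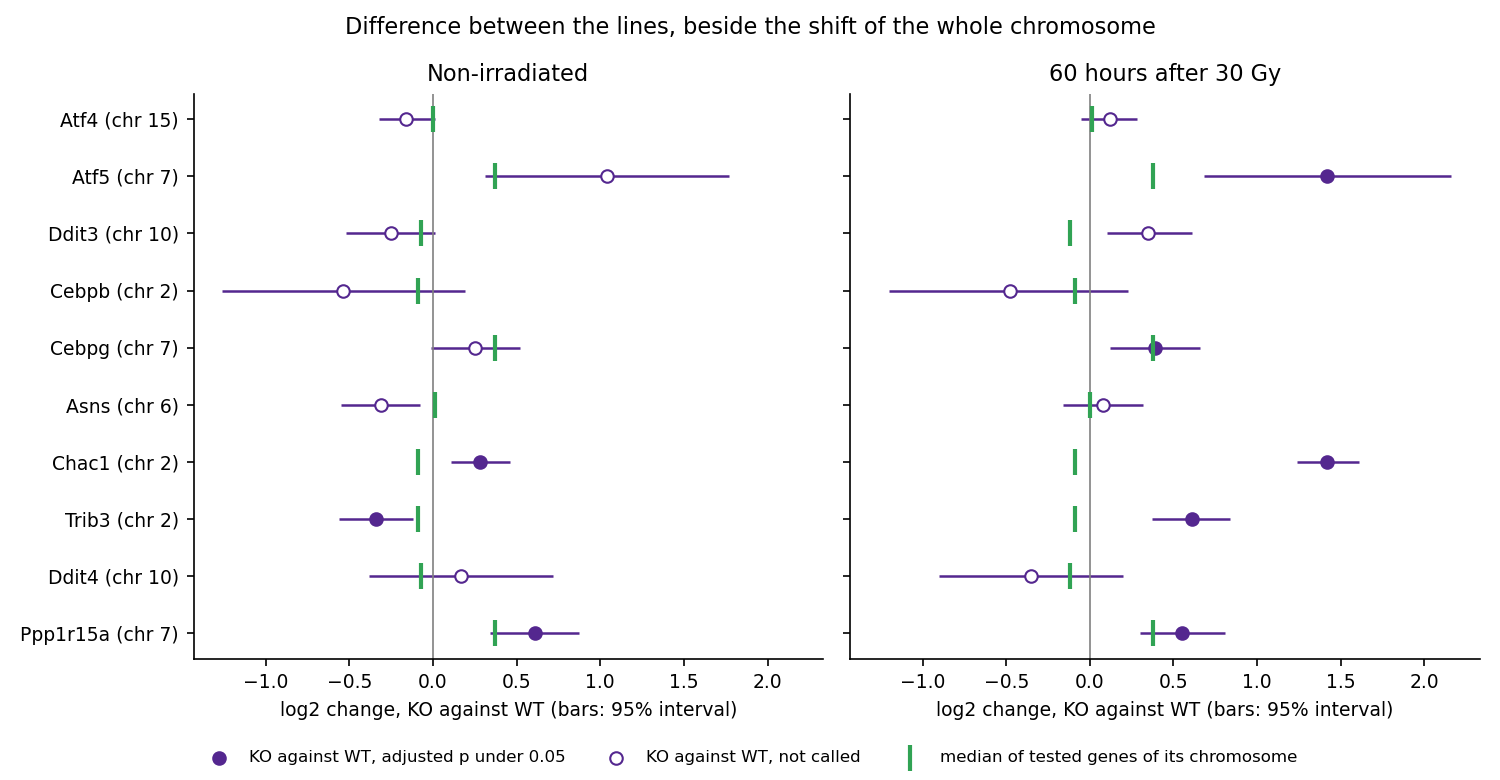
The log2 difference of KO from WT is plotted for the 10 genes without and after irradiation, with 95% intervals, and a mark at the median of the tested genes of the gene's chromosome. Chac1 moves from 0.28 to 1.42 and Trib3 from -0.34 to 0.61, while Cebpg, at 0.25 and 0.39, lies near its chromosome's median of 0.37 and 0.38.

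Most listed genes for amino acid use, many of them known ATF4 targets, fell after irradiation in both lines. Of 13 genes for aminoacyl-tRNA synthetases and the tRNA exporter Xpot, 13 were lower and 0 higher in WT, with a median log2 change of -0.82. In KO 12 were lower and 1 higher, with a median of -0.70. Of all tested genes, 18.4% were called lower and 20.4% higher in WT, and 18.6% and 21.1% in KO. The falls in WT were largest for Mars, by 1.36 ± 0.07, Tars, by 1.08 ± 0.08, and Xpot, by 1.05 ± 0.07 (edgeR adjusted p = 1.84e-05, 6.14e-05 and 4.68e-05). In KO the exception was Wars, the tryptophanyl-tRNA synthetase gene, which fell by 0.52 ± 0.07 in WT but rose by 0.26 ± 0.07 in KO (0.00107 and 0.0218). Its interaction was 0.78 ± 0.10 (0.00871), lost in 3 of 13 alternative fits, without irradiated WT replicate 2 (0.0668), non-irradiated KO replicate 2 (0.058) or irradiated KO replicate 2 (0.0587).

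Of 22 genes for amino acid synthesis and import, 19 were lower and 2 higher in WT, with a median of -1.09. In KO 17 were lower and 2 higher, with a median of -0.89. Over all tested genes the shares were 18.4% lower and 20.4% higher in WT, and 18.6% and 21.1% in KO. Mthfd2, a mitochondrial folate enzyme, went from 144.1 ± 5.35 to 22.4 ± 1.14 CPM in WT (SD, 2 libraries each) and fell by 2.75 ± 0.10 in WT and 1.99 ± 0.10 in KO (edgeR adjusted p = 6.67e-06 and 5.69e-06). Its interaction was 0.76 ± 0.13 (0.0335), a call lost without any of the 4 WT libraries, either non-irradiated KO library or irradiated KO replicate 2 (0.0963 to 0.148). Psph, which completes serine synthesis, fell by 1.68 ± 0.13 in WT, and the neutral amino acid carrier gene Slc1a4 fell by 1.29 ± 0.08 in KO. The 2 higher genes lie outside the naming rule and were chosen after their values were seen. Cbs, the gene of a transsulfuration enzyme, rose by 5.69 ± 0.68 in WT and 3.86 ± 0.59 in KO. Its mean stayed under 5 CPM in every group, so this is the change of a gene at a low level. The arginine carrier Slc7a3 rose by 1.07 ± 0.23 and 0.75 ± 0.24.

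Of 14 tested further targets of ATF4 or CHOP, 3 were higher and 5 lower in WT and 2 and 3 in KO, where 20.4% of all tested genes were called higher and 18.4% lower in WT, and 21.1% and 18.6% in KO. Bcl2l11, which encodes the cell death protein BIM, a CHOP target, rose by 2.43 ± 0.20 in WT and 1.35 ± 0.20 in KO (edgeR adjusted p = 0.000131 and 0.00163), and Vegfa, an angiogenic factor, fell by 0.87 ± 0.08 and 1.13 ± 0.08 (0.000184 and 4.31e-05). Of 17 endoplasmic reticulum genes of the XBP1 and ATF6 arms, 2 were higher and 7 lower in WT and 4 and 4 in KO. In KO both lists lay near the share of all genes. Ern1, the sensor IRE1alpha, rose by 0.79 ± 0.08 and 1.02 ± 0.08 (0.000322 and 8.13e-05). The medians of these lists were -0.37 and -0.14 in WT, and -0.10 and -0.04 in KO.

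Of 16 genes for eIF2alpha kinases, phosphatase control and the exchange factor eIF2B, 4 were higher and 6 lower in WT and 4 and 4 in KO, beside the same shares of all tested genes, so that the higher counts lay near the background. Eif2ak2 encodes the double-stranded RNA kinase PKR and is itself induced by interferon. It went from 63.3 ± 2.64 to 130.9 ± 12.2 CPM in WT and from 72.2 ± 1.98 to 465.8 ± 2.02 in KO (SD, 2 libraries each), with an interaction of 1.67 ± 0.12 on the log2 scale (edgeR adjusted p = 0.000968). Both irradiated KO libraries lay above all others. Eif2ak3, which encodes the endoplasmic reticulum kinase PERK, was 21.9 ± 0.744 in WT and 43.5 CPM in KO without irradiation, a difference of 0.98 ± 0.09 (0.000411). Impact, an inhibitor of the amino acid sensor GCN2, rose by 1.09 ± 0.13 in WT and 0.81 ± 0.13 in KO (0.000683 and 0.00261), and the eIF2B subunit gene Eif2b3 fell by 1.05 ± 0.10 and 1.01 ± 0.10 (0.000244 and 0.000242).

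Between the irradiated lines, 5 of the 13 synthetase genes were higher in KO and 0 lower, and 3 of the 22 amino acid genes were higher and 2 lower, where 13.3% of all tested genes were called higher and 11.4% lower. The amino acid counts lay near that background. Without irradiation 3 synthetase genes were higher in KO and 3 lower, and 2 of the amino acid genes were higher and 8 lower, where 10.4% and 9.49% of all tested genes were called. Among the 8 were Shmt2, a mitochondrial serine enzyme, lower by 0.73 ± 0.08, and Mthfd2, lower by 0.56 ± 0.09 (edgeR adjusted p = 0.00101 and 0.00485). Between the irradiated lines Gars, the glycyl-tRNA synthetase gene, was higher in KO by 0.77 ± 0.07 and Lars, for leucine, by 0.59 ± 0.08 (edgeR adjusted p = 0.000293 and 0.00183). The glycine carrier Slc6a9 was higher by 0.80 ± 0.08 and the glutamine carrier Slc1a5 by 0.68 ± 0.09 (0.000533 and 0.00151). Slc1a5 lies on chromosome 7, whose median shift is given above. No chromosome median was subtracted for the genes of these lists, so the part of such shifts in their counts was not tested. Of 14 further targets 4 were higher and 3 lower, among them the secreted glycoprotein gene Stc2, higher by 1.35 ± 0.17 (0.00125). The medians of the 3 lists after irradiation were 0.19, 0.08 and 0.23, beside -0.01 over all tested genes.

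**Figure D5:**
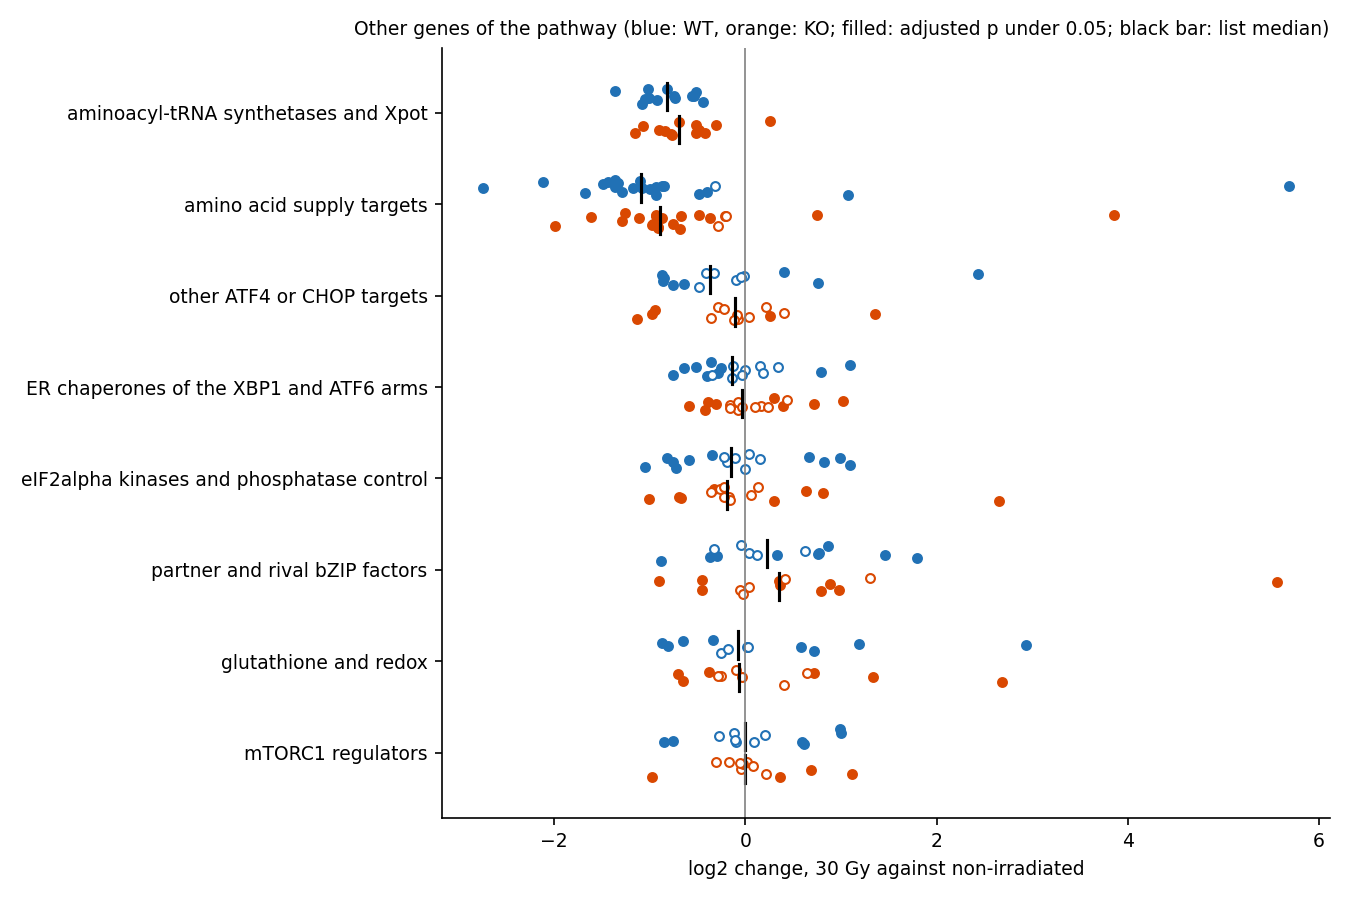
Log2 changes after 30 Gy are plotted for the genes of 8 lists in WT and in KO, 1 point per tested gene, with lines at list medians. The medians of the synthetase and amino acid supply lists are -0.82 and -1.09 in WT. Cbs (5.69 in WT, mean under 5 CPM in every group) and Slc7a3 (1.07 in WT) lie above 0 in both lines. Wars lies above 0 in KO (0.26), and the other lists spread on both sides of 0.

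Genes whose pattern over the 8 libraries was closest to that of 4 members were sought among 10521 tested genes whose mean reached 5 CPM, by the root mean square difference of centred log2 CPM. The genes of the axis themselves were left out of the ranking. For Atf4, whose own root mean square was 0.53, the nearest were the ribosome assembly gene Bysl at 0.057, Rcc1 at 0.061, Igfbp4 at 0.062 and the proline synthesis gene Aldh18a1 at 0.064. For Asns they were Timp1 at 0.1, the branched-chain aminotransferase gene Bcat1 at 0.109, Psph at 0.11 and Mapk6 at 0.111. Ddit3 lay nearest to Arid5a at 0.099 and the replication factor gene Mcm10 at 0.107, followed by Tmod1 and Erap1. Ppp1r15a lay nearest to Cercam at 0.095, Nipal3 at 0.098, Tgoln1 at 0.1 and Vrk3 at 0.106. Vrk3 is on chromosome 7 as Ppp1r15a is. These distances describe 8 libraries of 4 groups and carry no test.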

How the data were processed

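The values the authors deposited are raw counts of reads for each Ensembl gene, not normalized. Per the submitters' processing notes, the build was mm10 and the tools included HISAT2, HISAT, HTSeq and DESeq2. For the annotation release, strand setting and treatment of reads with several placements, the sources used here give nothing. Of 29079 gene IDs, 28915 were named and placed with GENCODE M21, and levels per kb use its exon lengths.

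Tests used edgeR 4.0.16 in R 4.3.3. The filter filterByExpr (minimum count 10, minimum total 15) left 14923 genes with 99.86 to 99.93 percent of the counts, and TMM factors were 0.975 to 1.024. All 8 libraries entered 1 fit with a coefficient per group, 4 residual degrees of freedom and a common dispersion of 0.0199, and the 5 comparisons were tested two-sided with quasi-likelihood F tests and BH adjustment. SE derive from F. CPM are per M of total counts, and 3 counts, the limit a count of 0 allows, are 0.151 to 0.273 CPM. Libraries of a group differed beyond sampling noise (chi-square per gene 12.9 to 23.2).

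Same-numbered libraries deviated together from their group means in all 6 pairs of groups (r of 0.564 to 0.611), so the replicate numbers, which come from the labels' titles, were taken to pair the libraries in an alternative fit. Other alternatives were DESeq2 1.42.0, its size factors, no filter, a robust fit and leaving out each library. A further check subtracted the median of genes within 5 Mb and, like the alternatives for genes of the other lists, was chosen after seeing the data. The 10 genes and the lists were chosen with earlier results of these data known. Besides the 10 genes, a list names at most 3 called genes per comparison, those with the largest log2 change and a mean of 5 CPM or more in the higher group, and not all of these are printed.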

Additional observations from a re-analysis of the deposited data

Results flagged for a closer look

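The responses of 2 genes to 30 Gy differed between the lines by a test of the difference itself, the interaction. Chac1 differed by 1.14 on the log2 scale (edgeR adjusted p = 0.00252), from a fall of 2.10-fold in WT and no called change in KO, and its SD within the 4 groups was 0.295 to 1.2 CPM. Trib3 differed by 0.95 (edgeR adjusted p = 0.0153), with a smaller fall in KO than in WT. Summed interferon-stimulated transcripts, over a reference list of 12 genes, were 528.5 to 667.7 CPM in irradiated WT and 5557.4 to 5623.1 in irradiated KO, beside 110.8 to 112.9 and 207.0 to 222.2 without irradiation. Their part in both differences was not tested. Groups of 2 libraries are too small for a search for outlying libraries.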

How the results depend on the processing

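Of 690 values of the 10 genes under alternative settings, 595 kept direction and side of the threshold or moved by less than their SE. Another 39 lost a call, 28 gained one, and 17 moved with the place in the genome subtracted. A further 11 turned direction in an alternative fit, 0 of them called in either fit. All 11 came from leaving out 1 library, and the cause was not tested. Ddit4 went from 0.18 to -0.01 and -0.05 after irradiation of WT, without non-irradiated replicate 2 or irradiated replicate 1, and from 0.17 to -0.02 and -0.11 between non-irradiated lines, without WT replicate 2 or KO replicate 1. Its highest values with 1 library left out were 0.39 and 0.43. After irradiation of KO, Atf5 went from -0.39 to 0.01 without non-irradiated replicate 2, and Cebpb from 0.35 to -0.04 without replicate 1 of that group, where the other ends of the ranges were -0.76 and 0.93. The interaction of Cebpb went from 0.05 to -0.29, -0.04, -0.33 and -0.01, with a highest value of 0.64, and that of Ppp1r15a from -0.05 to 0.06. Between non-irradiated lines Cebpg, not called at 0.25, stood at -0.12 less the chromosome median and -0.17 less the window median. Both values turned direction too, and are counted among the 17 that moved. The replicate block, the fit with paired libraries, raised the genes called from 5798 to 9034 after irradiation of WT, 5927 to 8986 of KO, 2971 to 6701 and 3678 to 7516 between lines without and after irradiation, and 290 to 2492 for the interaction, and the counts of the 10 genes from 3 to 9, 5 to 9 and 2 to 7 in the last 3. Among the 10 genes it changed no other call than those given beside the results. Without the filter the interaction had 578 genes. DESeq2 called 1 of the 10 between non-irradiated lines. Leaving out 1 library gave 3846 to 5729 genes in WT, 3904 to 5743 in KO, 1508 to 2545 and 1960 to 3463 between lines, and 120 to 155 for the interaction, and among the 10 genes 0 to 2, 2 to 5 and 1 to 2 in the last 3. Irradiation counts of the 10 genes were 7 to 8 in WT and 6 to 8 in KO under all alternatives. For named genes of the other lists, 1140 of 1222 values kept their call and 82 lost it. Each group's 2 libraries limit the precision.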

Other observations

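Of 14 tested bZIP and related factors that pair or compete with ATF4 and CHOP, 6 were higher and 3 lower after 30 Gy in each line, where 20.4% of all tested genes were called higher and 18.4% lower in WT, and 21.1% and 18.6% in KO. The lower counts lay near that background. Cebpd, a C/EBP family member, went from 5.05 ± 0.913 to 18.2 ± 2.29 CPM in WT (SD, 2 libraries each) and rose by 1.79 ± 0.17 on the log2 scale in WT and 0.79 ± 0.16 in KO (edgeR adjusted p = 0.000221 and 0.00742). Nfe2l2, which encodes the antioxidant factor NRF2, was 122.7 ± 4.4 CPM in irradiated WT and 61.1 ± 2.07 in irradiated KO, lower in KO by 0.99 ± 0.07 (9.3e-05). Batf2, an interferon-induced factor, rose by 1.46 ± 0.38 in WT and 5.56 ± 0.42 in KO (0.0194 and 5.84e-05).

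Of 12 glutathione and redox genes, 4 were higher and 4 lower in WT and 3 and 3 in KO after 30 Gy, where 38.9% of all tested genes were called in WT and 39.7% in KO. Hmox1, the heme oxygenase gene, rose by 1.19 ± 0.11 in WT and 1.33 ± 0.10 in KO (edgeR adjusted p = 0.00019 and 7.2e-05), and was higher in KO than in WT by 0.99 ± 0.11 without and 1.13 ± 0.10 after irradiation (0.00102 and 0.000263). Of 12 tested mTORC1 regulators, 4 were higher and 2 lower in WT and 3 and 1 in KO, near the same shares in KO. Sesn3, a sestrin gene, went from 32.9 ± 1.93 to 68.2 ± 0.636 CPM in WT and rose by 1.00 ± 0.09 there and 1.11 ± 0.10 in KO (0.000208 and 0.000113).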
